A study of Mus musculus with 30 samples.

Results

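The genes described here belong to the kallikrein-kinin system: the tissue kallikreins Klk8, Klk10 and Klk11, the kininogens Kng1 and Kng2, and the bradykinin receptors Bdkrb1 and Bdkrb2. They were taken by gene name from the scanner files, which gave 8 probes for these 7 genes out of 34728 names on the array, 2 probes for Kng1 and 1 for each other gene. The set was selected on values of these same arrays: earlier results had singled out Kng1 and Klk10 for their difference between CaCl2 and sham aortas of wild type mice at day 42. Values of the wild type day 42 groups are therefore given as a description with no test, and tests are given for comparisons that hold no array of those groups. No contrast is named in the rule that chose the set, so its choice on wild type day 42 is assumed. Other comparisons may have informed the choice too.

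Aortic RNA was measured on 30 one-colour arrays, 3 in each of 10 groups. The groups were uMT mice, which lack B cells, and wild type (WT) mice, both with the strain label C57BL/6. In each genotype, aortas were taken without an operation (pre), or 7 or 42 days after 0.5 M CaCl2 or saline (sham) had been applied around the vessel. In the uMT line, a disrupted immunoglobulin mu heavy chain gene blocks B cell development. Periaortic CaCl2 is a chemical injury used as a model of abdominal aortic aneurysm, in which the wall calcifies and its elastic fibres break. The tissue label names an aneurysm for every sample, those of the pre and sham groups included. Sex, age and pooling are not given in the labels, and nothing there says that the 3 samples of a group were separate animals, so p-values measure the spread between these samples only.

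Kininogens are secreted precursor proteins, made mainly by the liver, from which kallikreins cut bradykinin and related peptides. Bradykinin acts on its B2 receptor (Bdkrb2), which most vessels carry, and its carboxypeptidase product acts on the B1 receptor (Bdkrb1), which is known to be induced by injury and inflammation. Both receptors raise calcium in endothelium and smooth muscle, and through nitric oxide and prostaglandins they widen and leak vessels. The name kallikrein also covers related serine proteases that are not chiefly kinin-forming. Klk8, Klk10 and Klk11 belong to this group and are best known from skin, brain and glandular epithelia, and KLK10 also from endothelium under steady blood flow.

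A level is the log2 processed signal of a probe minus the 75th percentile of that array, so a difference of 1 is a doubling. A probe counts as measured on an array where the scanner software called it well above background. Between 36.6% and 61.8% of the probes were so on an array. WT sham day 42 replicate 2 was the lowest, lay alone on its slide and scan day, and correlated with its group mates at a mean r of 0.722. Of the 4 B and plasma cell markers, Ms4a1 was well above background on 12 of 30 arrays and Jchain on 10, none of them from uMT mice, while Cd79a on 28 and Mzb1 on 13 included uMT arrays. All 6 listed smooth muscle markers were well above background on all 30 arrays. Slides were not balanced: the uMT CaCl2 arrays lay on 1 slide, the uMT sham arrays on another, and the WT CaCl2 arrays on another than the WT sham day 7 arrays. No slide held both CaCl2 and sham arrays of uMT mice, or of WT mice at day 7, so treatment and slide cannot be told apart there. For WT mice at day 42, 1 sham array shared the slide of the CaCl2 arrays.

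The last 30 of the 60 bases of each probe are shown because these stretches decide which transcripts a value stands for. Coordinates are those the scanner files give, in mm9, and capitals mark AATAAA, the hexamer that precedes the poly(A) site of many transcripts.
Klk8: aaaatctattcccagaacaagtgtgagaga
Klk10: tacaataggagcctgagctgttccaaggta
Klk11: gacagtccctggcatatcccagggtttcaa
Kng1, first probe: tcctagtggaAATAAAattcagacttgatg
Kng1, second probe: atagcctttcatttaagctgatatctgatt
Kng2: gttcatagccagagaaaccaaatgttccaa
Bdkrb1: gcttcttgaccaaccgtctctgctatcata
Bdkrb2: atttattggtcttctgaaggttaaattcta

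The first Kng1 probe (chromosome 16, 23081700 to 23081759) was the brighter of the pair and stands for the gene, and it alone among the 8 held AATAAA, as did 8.16% of the 55681 probes in their last 30 bases. The second lies at 23079732 to 23079791 on the same chromosome. The Kng2 probe (chromosome 16, 22997333 to 22999887) spans 2555 bases of the genome and so crosses an intron. No 2 kininogen probes shared a run of more than 7 bases. All 3 nevertheless list RefSeq transcripts of both Kng1 and Kng2, which are close copies, so the signals of the pair cannot be assigned to a single gene with certainty. The kallikrein probes lie on chromosome 7, that of Klk11 at 51034552 to 51034611, that of Klk10 at 51039077 to 51039720 across an intron, and that of Klk8 at 51057455 to 51057514. The receptor probes lie on chromosome 12, Bdkrb2 at 106831222 to 106831281 and Bdkrb1 at 106843460 to 106843519. Whether a probe lies in coding sequence or in a UTR is not given by the scanner files.

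Both kininogens rose in CaCl2 aortas of uMT mice at day 42 and of WT mice at day 7, and neither passed the test in uMT mice at day 7. In uMT mice at day 42, Kng1 stood 22.8-fold and Kng2 at least 2.67-fold above sham, and in WT mice at day 7 Kng1 stood 8.56-fold and Kng2 7.45-fold above sham. Klk10 and Klk11 were lower in CaCl2 aortas of both genotypes and at both days, and the fall of Klk11 in uMT mice at day 42, 10.5-fold, passed the test. The receptor Bdkrb1 was dim, and Bdkrb2 was not well above background on any array.

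**Figure D1:**
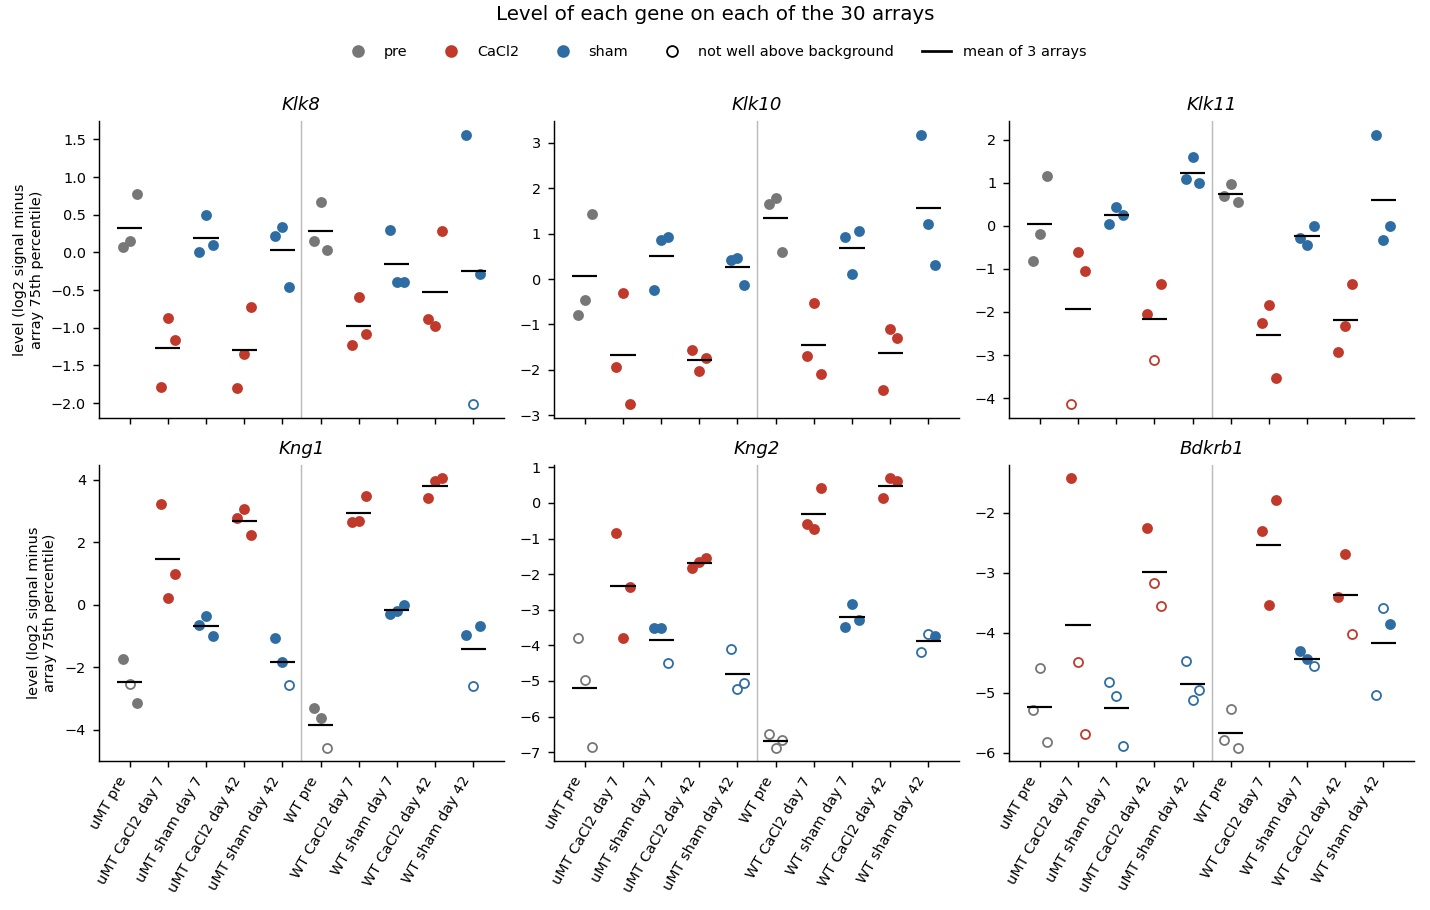
Level of each gene on each array, as log2 signal minus the array's 75th percentile, for the 5 groups of uMT mice (left of the grey line) and of WT mice (right of it). Points are arrays, open where the probe was not well above background, and bars are means of 3 arrays. Kng1 ran between 0.22 and 4.05 on all 12 CaCl2 arrays and below 0 on all 18 others, while Klk10 and Klk11 were below 0 on all 12 CaCl2 arrays.

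Kng1 had levels of 2.78, 3.06 and 2.24 in uMT CaCl2 aortas at day 42, against -1.06, -1.83 and -2.56 in uMT sham aortas, the last not well above background. The groups did not overlap, and Kng1 rose by 4.51 ± 0.58 (log2 difference ± SE of the fit, n = 3 each, limma adjusted p = 8.46e-05). At day 7, uMT CaCl2 aortas held 3.22, 0.22 and 0.98, against -0.65, -0.35 and -1.01 in uMT sham aortas. Replicate 1 stood well above the other two, and the groups again did not overlap. The difference of 2.14 ± 0.58 did not pass (limma adjusted p = 0.076), and without replicate 2 of the CaCl2 group it did. Replicate 2 was the lowest CaCl2 array, so leaving it out widens the difference, and that call adds no support.

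In WT mice at day 7, Kng1 had levels of 2.66, 2.67 and 3.47 in CaCl2 aortas, against -0.30, -0.19 and -0.01 in sham aortas. Both groups were tight, and Kng1 rose by 3.10 ± 0.58 (limma adjusted p = 0.0041). At WT day 42, on which the set is assumed to have been chosen, the levels were 3.42, 3.97 and 4.05 in CaCl2 aortas, against -0.97, -2.61 and -0.69 in sham aortas, a difference of 5.23 ± 0.58. The -2.61 belonged to the dim replicate 2, was not well above background, and without that array the difference was 4.64. Within the slide that held the 3 CaCl2 arrays and sham replicate 3, the difference was 4.50.

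Over the 10 groups, Kng1 was highest in WT CaCl2 day 42 aortas (3.81 ± 0.34, SD, n = 3), followed by WT CaCl2 day 7 (2.93 ± 0.47), uMT CaCl2 day 42 (2.69 ± 0.42) and uMT CaCl2 day 7 (1.47 ± 1.56). The ranges of neighbours in this order overlapped, down to a gap below uMT CaCl2 day 7. WT sham day 7 came next (-0.17 ± 0.14), apart from uMT sham day 7 (-0.67 ± 0.33). WT sham day 42 (-1.42 ± 1.04), uMT sham day 42 (-1.82 ± 0.75) and uMT pre (-2.46 ± 0.69) overlapped as neighbours, and WT pre was lowest (-3.83 ± 0.67) with no overlap. Raw processed signal of this probe ran from 5.92 to 5310 units over the 30 arrays.

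The second Kng1 probe was well above background on 5 of 30 arrays, all from CaCl2 aortas. Those were the 3 WT arrays of day 7, at -3.20, -3.23 and -1.96, WT replicate 2 of day 42 and uMT replicate 1 of day 7. It correlated with the first probe at r = 0.670 over the 30 arrays, as a description, with most of its values at background. Fitted on its own, the second probe differed between CaCl2 and sham by 0.70 ± 0.63 in uMT mice at day 42 (limma adjusted p = 0.644). At day 7 it differed by 1.16 ± 0.63 in uMT mice (limma adjusted p = 0.385). In WT mice at day 7 it differed by 3.19 ± 0.63, as a description, since it passed the filter through that CaCl2 group alone. In WT mice at day 42, also as a description, it differed by 1.37 ± 0.63, against 5.23 ± 0.58 for the first probe. The Kng1 values of uMT mice, and those of WT sham and pre aortas, thus rest on the first probe.

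Kng2 followed the same pattern at a lower signal. In uMT mice at day 42 its levels were -1.83, -1.67 and -1.55 in CaCl2 aortas, against -4.11, -5.23 and -5.06 in sham aortas, none of these sham values well above background. The fold is a lower bound there, computed against the higher of each sham array's own value and its faintest signal well above background. The fitted rise was 3.12 ± 0.60 (limma adjusted p = 0.0026). uMT mice at day 7 gave -0.84, -3.78 and -2.37 in CaCl2 aortas, against -3.51, -3.51 and -4.49 in sham aortas, and the groups overlapped (1.50 ± 0.60, limma adjusted p = 0.221). WT mice at day 7 gave -0.59, -0.73 and 0.41 in CaCl2 aortas, against -3.49, -2.84 and -3.28 in sham aortas. Those groups were well apart, and Kng2 rose by 2.90 ± 0.60 (limma adjusted p = 0.0073). WT mice at day 42 gave 0.13, 0.69 and 0.62 in CaCl2 aortas, against -4.19, -3.68 and -3.74 in sham aortas, of which the last alone was well above background. The difference of 4.35 ± 0.60 is a description, and it was 4.22 within the shared slide.

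Kng2 was highest in WT CaCl2 day 42 aortas (0.48 ± 0.31) and WT CaCl2 day 7 aortas (-0.31 ± 0.62), which overlapped. A gap separated these from uMT CaCl2 day 42 (-1.68 ± 0.14) and uMT CaCl2 day 7 (-2.33 ± 1.47), which overlapped each other. The sham and pre groups averaged -3.20 and lower, WT sham day 7 overlapping uMT CaCl2 day 7, and the probe was well above background on none of the 6 pre arrays. Over the 30 arrays Kng1 and Kng2 correlated at r = 0.962, which is a description: the points share groups and arrays, and the probes list transcripts of both genes.

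**Figure D2:**
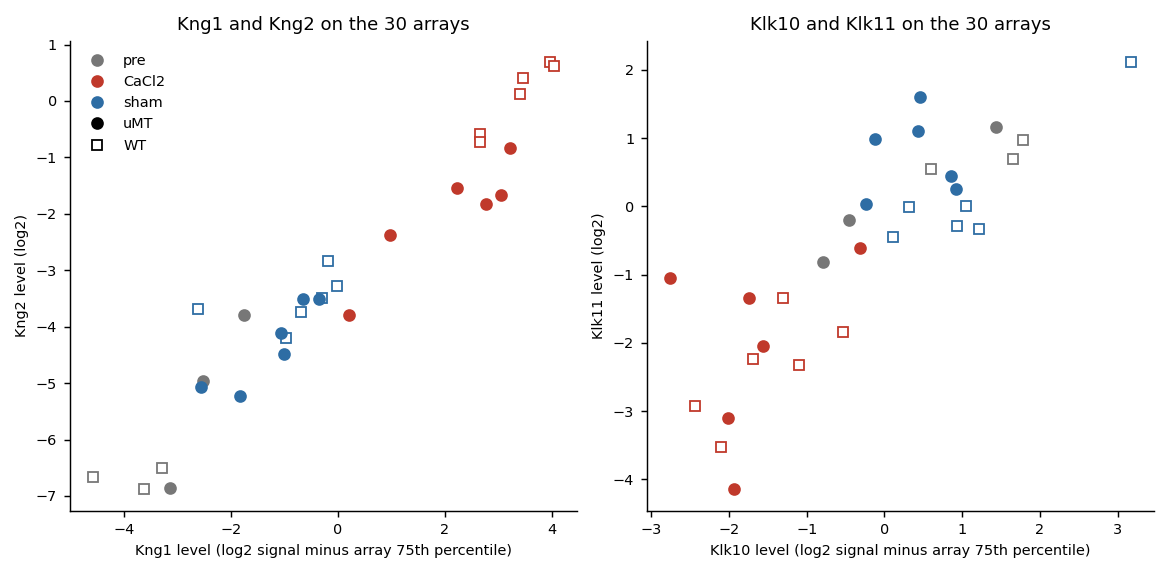
Kng2 level against Kng1 level (left) and Klk11 level against Klk10 level (right), both as log2 signal minus the array's 75th percentile, with 1 point for each of 30 arrays. Filled circles are uMT and open squares WT arrays, coloured by treatment. The kininogens lie along 1 line (r = 0.962), the 6 WT CaCl2 arrays having the 6 highest Kng2 levels, and the kallikreins scatter more (r = 0.840).

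Counted over the set, 3 of the 6 members that passed the filter on dim probes were called in uMT mice at day 42 (Kng1, Kng2, Klk11), when 6.33% of the 23268 genes tested were called. The count was 2 of 6 in WT mice at day 7 (Kng1, Kng2), against 6.59% of all genes. limma called 0 of 6 in uMT mice at day 7, against 0.894% of all genes, while 5 of 6 members and 15.2% of all genes had an unadjusted p under 0.05. At that unadjusted threshold lay 6 of 6 members and 18.8% of all genes in uMT mice at day 42, and 5 of 6 members and 20.2% of all genes in WT mice at day 7. Of the 6 in WT mice at day 42, 4 did not overlap between CaCl2 and sham aortas, nor did 19.8% of all genes. That contrast is assumed to have chosen the set, and nothing is read from its count. A lack of overlap was frequent over all 23268 genes. Between CaCl2 and sham aortas it held for 6171 genes in uMT mice at day 42. At day 7 it held for 8131 in uMT mice and 12070 in WT mice. Between sham day 7 and pre aortas it held for 7660 in uMT mice and 7216 in WT mice. Between uMT and WT CaCl2 aortas it held for 5350 at day 7 and, as a description, 8134 at day 42. Bdkrb2 did not pass the filter and is in no count. Bdkrb1 passed the filter through WT CaCl2 day 7 aortas alone, the group where it was highest. The filter thus favoured a difference there, and the place of Bdkrb1 in these counts of 6 supports nothing. The probes of Kng1 and Kng2 list transcripts of both genes, so in these and later counts their 2 calls cannot be taken as separate.

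Slides touch all of these counts. With the slide as a random block, which limma fitted with a correlation of 0.782, the calls were 0 of 6 in uMT mice at both days and in WT mice at day 7. That correlation became -0.0687 once WT sham day 42 replicate 2 was left out. With the same block the calls were then 6 of 6 in uMT mice at day 42. They were 5 of 6 in uMT mice at day 7 and 5 of 6 in WT mice at day 7. Treatment and slide lie together in these comparisons, so that fit cannot part them and is no check on slides. Leaving out that array alone gave 5, 3 and 4 of 6 in these comparisons in the same order. Calls over all genes also rose without that array, as the closing section gives, so the rise is not particular to the members. For the block without that array, calls over all genes are not given.

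**Figure D3:**
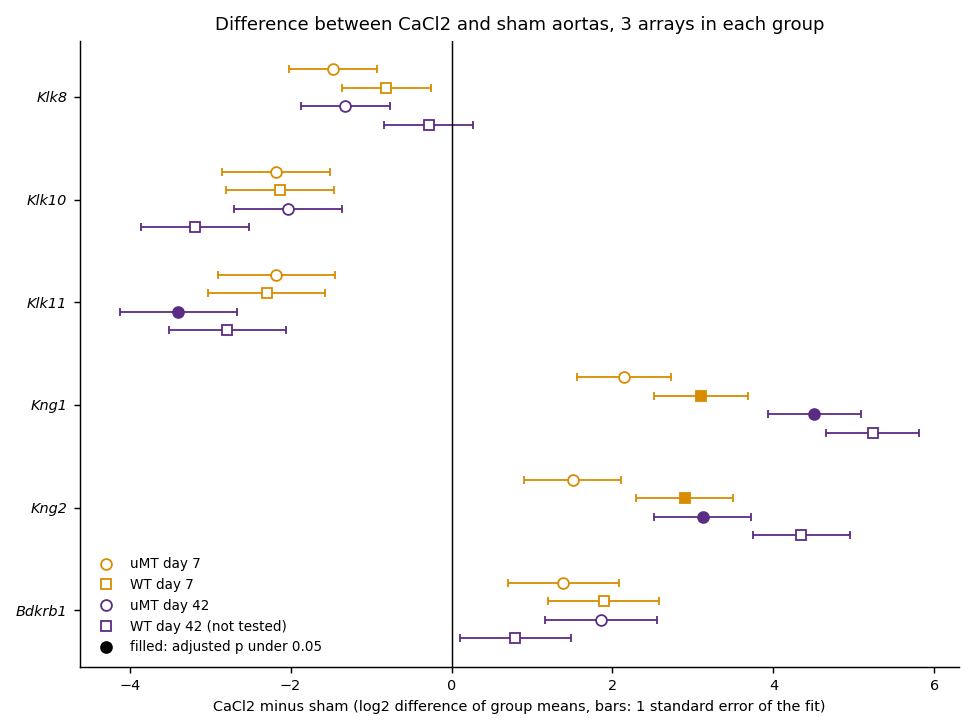
Difference between CaCl2 and sham group means (log2, horizontal axis) for the 6 members tested, with bars of 1 standard error of the fit and 3 arrays in each group. Circles are uMT and squares WT, orange day 7 and purple day 42, and a filled symbol has an adjusted p under 0.05. The kininogens lie to the right of 0 and the kallikreins to the left in every comparison. The WT day 42 values, which are assumed to have chosen the set, carry no test.

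Markers of several cell types differed where the kininogens did. A summed level is the log2 of the summed linear levels of a list. In uMT mice at day 42 the summed level of the 5 neutrophil markers ran from 4.16 to 4.89 in CaCl2 aortas, against -0.26 to 2.01 in sham aortas, and in WT mice at day 7 from 3.48 to 5.41 in CaCl2 aortas, against 2.14 to 2.47 in sham aortas. In uMT mice at day 7, where Kng1 did not overlap between the groups, the neutrophil sum did, at 1.64 to 4.31 in CaCl2 aortas, against 2.52 to 2.68 in sham aortas. The summed level of the 5 macrophage markers ran from 8.80 to 9.40 in uMT CaCl2 day 42 aortas, against 8.47 to 9.41 in uMT sham aortas, and from 8.01 to 8.32 in WT CaCl2 day 7 aortas, against 7.68 to 7.95 in WT sham aortas. Gene by gene, their median difference in uMT mice at day 42 was 2.02. There 1 of 5 was called higher and 4 of 5 had an unadjusted p under 0.05. In WT mice at day 7 the median was 0.80, with 0 of 5 called. Of 4 neutrophil markers tested, 2 were called higher in uMT mice at day 42 and 0 in WT mice at day 7. The 4 fibroblast markers summed to 10.14 to 10.65 in uMT CaCl2 day 42 aortas, against 8.20 to 9.62 in uMT sham aortas, with 3 of 4 called higher. The 4 B and plasma cell markers summed to 0.91 to 1.77 in WT CaCl2 day 7 aortas, against -1.70 to -0.59 in WT sham aortas, and to -1.60 to -0.01 in uMT CaCl2 day 42 aortas, against -1.71 to -0.28 in uMT sham aortas. The part of these cell types in the kininogen values was not tested. The liver is the main source of plasma kininogen, and the 9 hepatocyte markers had a summed level of 0.65 to 1.31 in uMT CaCl2 day 42 aortas, against 1.47 to 1.72 in uMT sham aortas. In WT mice at day 7 it was 0.90 to 1.08 in CaCl2 aortas, against 0.39 to 1.38 in sham aortas. Of these markers, Serpina1a was well above background on 30 of 30 arrays, Ahsg on 29, Hpx on 19, Fga on 8, Alb and Apoh on 4, Fgb on 1, and Apoa1 and Ttr on 0. In bulk tissue, fewer cells of a type and less RNA per cell cannot be told apart.

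Klk11 was the 1 kallikrein with a difference that passed. Its levels in uMT mice at day 42 were -2.05, -3.11 and -1.34 in CaCl2 aortas, the second not well above background, against 1.10, 1.60 and 0.99 in sham aortas. The groups lay more than 2 log2 units apart, and Klk11 fell by 3.40 ± 0.73 (limma adjusted p = 0.0061). uMT mice at day 7 had -4.15, -0.62 and -1.05 in CaCl2 aortas, against 0.03, 0.44 and 0.26 in sham aortas. The first of these was not well above background, the sham group was tight, and the difference of -2.18 ± 0.73 did not pass (limma adjusted p = 0.141). WT mice at day 7 had -2.24, -1.84 and -3.53 in CaCl2 aortas, against -0.28, -0.45 and 0.01 in sham aortas, with no overlap and a difference of -2.30 ± 0.73 (limma adjusted p = 0.0585). At day 42 the WT levels of Klk11 were -2.92, -2.32 and -1.35 in CaCl2 aortas, against 2.12, -0.33 and -0.01 in sham aortas. The difference there, as a description, was -2.79 ± 0.73, and -2.19 within the shared slide. By group mean, Klk11 was highest in uMT sham day 42 aortas (1.23 ± 0.33), then in WT pre, WT sham day 42, uMT sham day 7, uMT pre and WT sham day 7 aortas. The 4 CaCl2 groups followed, from -1.94 ± 1.92 in uMT CaCl2 day 7 to -2.54 ± 0.89 in WT CaCl2 day 7 aortas. They overlapped one another. No gap set them apart from all other groups, since uMT pre replicate 1, at -0.81, lay below uMT CaCl2 day 7 replicate 2, at -0.62.

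Klk10, a protease also known from endothelium, was well above background on all 30 arrays. In uMT mice at day 42 its levels were -1.57, -2.02 and -1.75 in CaCl2 aortas, against 0.43, 0.46 and -0.12 in sham aortas. The CaCl2 arrays were all below the sham arrays, and the difference of -2.03 ± 0.67 missed the threshold (limma adjusted p = 0.0734). At day 7 the uMT levels were -1.94, -0.31 and -2.76 in CaCl2 aortas, against -0.23, 0.86 and 0.92 in sham aortas, and the lowest sham array lay just above the highest CaCl2 array (-2.19 ± 0.67, limma adjusted p = 0.112). For WT mice at day 7 they were -1.70, -0.53 and -2.10 in CaCl2 aortas, against 0.93, 0.10 and 1.05 in sham aortas. That difference, -2.14 ± 0.67, also missed the threshold (limma adjusted p = 0.0568), and it was 0.14 with the slide as a random block. The WT levels at day 42 were -2.45, -1.11 and -1.31 in CaCl2 aortas, against 3.18, 1.21 and 0.32 in sham aortas, a difference of -3.19 ± 0.67 given as a description. Sham replicate 1 was far above its mates in that group, without it the difference was -2.38, and within the shared slide it was -1.94.

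Over the 10 groups, Klk10 ran from 1.57 ± 1.46 in WT sham day 42 aortas to -1.78 ± 0.23 in uMT CaCl2 day 42 aortas, and every pair of neighbours in the order overlapped. The 4 CaCl2 groups took the last 4 places, between -1.44 and -1.78. Klk8 differed less. In uMT mice its levels were -1.79, -0.87 and -1.16 in CaCl2 aortas at day 7, against 0.01, 0.50 and 0.09 in sham aortas, and -1.80, -1.35 and -0.72 in CaCl2 aortas at day 42, against 0.22, 0.33 and -0.47 in sham aortas. Neither pair of groups overlapped, but neither difference passed, at -1.47 ± 0.55 (limma adjusted p = 0.192) and -1.32 ± 0.55 (limma adjusted p = 0.175). Klk8 in WT mice at day 7 had -1.23, -0.59 and -1.09 in CaCl2 aortas, against 0.30, -0.39 and -0.39 in sham aortas (-0.81 ± 0.55, limma adjusted p = 0.453). At day 42 the WT levels were -0.89, -0.98 and 0.28 in CaCl2 aortas, against 1.56, -2.02 and -0.28 in sham aortas, the -2.02 not well above background, and the sham values enclosed the others. The order of the group means ran from uMT pre (0.33 ± 0.38) to uMT CaCl2 day 42 (-1.29 ± 0.54), and every pair of neighbours overlapped.

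Muscle markers were lower in CaCl2 aortas in the same comparisons, except where said. The summed level of the 6 genes ran from 9.60 to 10.83 in uMT CaCl2 day 42 aortas, against 11.37 to 12.32 in uMT sham aortas, and from 8.82 to 9.87 in WT CaCl2 day 7 aortas, against 10.96 to 11.29 in WT sham aortas. In uMT mice at day 7 the 3 kallikreins did not overlap, as was so for 8131 of all 23268 genes. The smooth muscle sum did overlap there, at 8.62 to 11.45 in CaCl2 aortas, against 10.91 to 10.95 in sham aortas. Of the 4 skeletal muscle markers, Acta1 was well above background on 30 of 30 arrays, Ckm on 6, and Myh4 and Mb on 1. Their sums therefore say little of the genes other than Acta1. The 4 markers summed to 0.88 to 4.23 in uMT CaCl2 day 42 aortas, against 4.84 to 5.67 in uMT sham aortas. At day 7 they summed to 3.28 to 4.75 in uMT CaCl2 aortas, against 5.70 to 5.95 in uMT sham aortas, and to 2.34 to 3.58 in WT CaCl2 aortas, against 5.41 to 5.87 in WT sham aortas. The summed level of the 4 endothelial markers overlapped in uMT mice at day 42, at 4.81 to 6.60 in CaCl2 aortas, against 4.99 to 7.17 in sham aortas. In WT mice at day 7 it was higher with CaCl2, at 5.06 to 5.38, against 4.70 to 4.76 with sham. Of the 9 epithelial and keratinocyte markers, Krt18 was well above background on 30 of 30 arrays, Krt10 on 28, Dsp on 24, Krt5 on 16, Krt14 on 15, Krt19 and Cdh1 on 8, and Krt8 and Epcam on 0. They had summed levels of 1.66 to 1.93 in uMT CaCl2 day 42 aortas, against 2.39 to 3.23 in uMT sham aortas, and of 1.82 to 2.70 in WT CaCl2 day 7 aortas, against 1.52 to 2.76 in WT sham aortas. The part of these cell types in the kallikrein values was not tested.

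Klk11, Klk10, Klk9 and Klk8 follow each other in this order on chromosome 7 in RefSeq. Klk9, measured between 2 of the members and named here after its values were seen, differed by -0.46 ± 0.36 in uMT mice at day 42 (limma adjusted p = 0.577) and by -0.10 ± 0.36 in WT mice at day 7 (limma adjusted p = 0.920). Because Klk10 and Klk11 were low on the same arrays, the RefSeq windows around their starts (GRCm38.p6, plus strand, 250 bases before to 50 after the start) are shown with CACCC, the core of the boxes that Krüppel-like factors bind, in capitals on either strand. For Klk11, which has 2 windows, the upstream one is shown.
Klk10, chr7:43780804-43781103: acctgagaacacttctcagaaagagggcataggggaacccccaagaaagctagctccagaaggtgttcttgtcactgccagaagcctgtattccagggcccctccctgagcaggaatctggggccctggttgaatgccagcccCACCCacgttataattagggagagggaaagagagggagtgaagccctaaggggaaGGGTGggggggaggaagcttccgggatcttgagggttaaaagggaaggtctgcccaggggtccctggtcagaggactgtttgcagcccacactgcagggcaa
Klk11, chr7:43774367-43774666: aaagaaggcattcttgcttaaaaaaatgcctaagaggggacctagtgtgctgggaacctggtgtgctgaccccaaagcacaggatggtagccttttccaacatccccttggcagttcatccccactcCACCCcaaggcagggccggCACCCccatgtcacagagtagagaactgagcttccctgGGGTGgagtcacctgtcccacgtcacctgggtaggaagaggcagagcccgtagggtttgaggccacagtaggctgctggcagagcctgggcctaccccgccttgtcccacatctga

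CACCC matched 2 times in the Klk10 window, 3 times in this Klk11 window and 0 times in the second Klk11 window and in that of Klk8, and 57.5% of all 32851 windows of this length hold it. TATAA matched 2 times in the Klk10 window, overlapping on opposite strands, and 0 times in those of Klk11 and Klk8 (24.9% of windows). These matches are letters in a window and say nothing of a factor's binding. The Kng2 window held 1 match to TTGCNNAA, a C/EBP-type motif that 10.8% of windows hold, and 0 to CACCC, to TATAA and to TTCNNNGAA, a STAT-type motif that 8.3% hold. Each of the 2 Klk11 windows also held 1 match to TTGCNNAA, and the Klk10 window held 1 to TTCNNNGAA, so neither motif sets the kininogen apart. All motifs were searched on both strands.

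The receptors were near the floor. Bdkrb1 was well above background on 10 of 30 arrays, among them all 3 of WT CaCl2 day 7 (-2.30, -3.54 and -1.79) and none of the 12 uMT pre, uMT sham and WT pre arrays. Against WT sham day 7, of which 2 of 3 arrays were well above background, WT CaCl2 day 7 aortas differed by 1.89 ± 0.69 with no overlap. This is a description with no test, since Bdkrb1 passed the filter through that CaCl2 group alone. In uMT CaCl2 aortas 1 of 3 arrays was well above background at day 7, at -1.43, and 1 of 3 at day 42, at -2.25, and neither difference from sham passed (limma adjusted p = 0.345 at day 7 and 0.119 at day 42). The WT difference at day 42 was 0.79 ± 0.69, as a description. By group mean, Bdkrb1 ran from -2.54 ± 0.90 in WT CaCl2 day 7 aortas to -5.66 ± 0.34 in WT pre aortas, and every pair of neighbours in that order overlapped. Bdkrb2, the receptor that vessels are known to carry constitutively, gave 2.90 to 8.11 units of processed signal and was well above background on 0 of 30 arrays, so no level or order of groups can be read for it.

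The kininogens also differed between sham and unoperated aortas. In WT mice, Kng1 rose by 3.66 ± 0.58 in sham aortas at day 7 over pre aortas (12.7-fold, limma adjusted p = 0.000734). Its levels were -0.30, -0.19 and -0.01 in sham aortas, against -3.29, -3.62 and -4.58 in pre aortas, the -4.58 not well above background. All 6 of these arrays lay on 1 slide. The second Kng1 probe was not well above background on any of them and differed by 0.43 ± 0.63, so this rise rests on the first probe. Kng2 rose by 3.48 ± 0.60 in the same comparison, at least 2.28-fold (limma adjusted p = 0.0016), with levels of -3.49, -2.84 and -3.28 in sham aortas, against -6.50, -6.88 and -6.66 in pre aortas, none of these pre values well above background. These were 2 of 6 members, against 2.37% of all genes called, and the same 2 against 8.97% of all genes had an unadjusted p under 0.05. In uMT mice the Kng1 levels were -0.65, -0.35 and -1.01 in sham day 7 aortas, against -1.74, -2.52 and -3.13 in pre aortas, the -2.52 not well above background. The groups did not overlap, and the difference of 1.80 ± 0.58 missed the threshold (limma adjusted p = 0.101). It was 2.16 within the slide that held 3 sham and 2 pre arrays. limma called 0 of 6 members there, against 2.54% of all genes, with 2 of 6 members and 16.2% of all genes at an unadjusted p under 0.05. In uMT sham aortas at day 42 against pre it called 0 of 6, against 17.4% of all genes, with 0 of 6 members and 33.6% of all genes at an unadjusted p under 0.05. The WT values at day 42, as a description, were 2.41 ± 0.58 for Kng1 and 2.81 ± 0.60 for Kng2 over pre. No kallikrein passed in any sham and pre comparison tested.

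The CaCl2 and sham comparisons at the 2 days and the sham and pre comparisons share their sham arrays, so their values are set side by side and not as independent support of each other. For Kng1, the CaCl2 level at day 7 stood 3.10 above sham and the sham level 3.66 above pre in WT mice, and 2.14 and 1.80 in uMT mice.

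The genotypes were compared within each treatment. No slide held arrays of both genotypes from the same treatment and day, so genotype and slide cannot be told apart in these comparisons. In CaCl2 aortas at day 7, Kng2 had -0.84, -3.78 and -2.37 in uMT mice, against -0.59, -0.73 and 0.41 in WT mice. All uMT arrays were below all WT arrays, yet the difference of -2.02 ± 0.60 did not pass (limma adjusted p = 0.169). Kng1 differed by -1.46 ± 0.58 (limma adjusted p = 0.325), with overlap through uMT replicate 1. limma called 0 of 6 members in that comparison, against 0.219% of all genes, with 2 of 6 members and 11.4% of all genes at an unadjusted p under 0.05. Without uMT replicate 1, the highest uMT array for both kininogens, it called Kng1 and Kng2. Bdkrb1 was called there too, but it had passed the filter through the WT CaCl2 day 7 group alone. Between pre aortas limma called 0 of 6, against 0.0903% of all genes (2 of 6 members and 11.9% of all genes at an unadjusted p under 0.05). Without uMT replicate 3 it called Kng2 there. That probe was not well above background on any pre array of either genotype, so this call compares values at background. Between sham aortas at day 7 limma called 0 of 6, against 0.0172% of all genes (0 of 6 members and 1.1% of all genes at an unadjusted p under 0.05).

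At day 7 the CaCl2 and sham groups of the genotypes each lay on a different slide, so an interaction cannot be told apart from slides. The CaCl2 and sham difference itself was tested between genotypes at that day. For Kng1 it was smaller by 0.96 in uMT mice (95% interval of the interaction -2.68 to 0.76) and for Kng2 the interaction was -1.39 (-3.16 to 0.38). For Klk10 it was -0.05 (-2.03 to 1.93) and for Klk11 0.12 (-2.03 to 2.26). limma called 0 of 6 interactions, with 0% of all genes called and 0 of 6 members and 4.22% of all genes at an unadjusted p under 0.05, and these intervals hold a several-fold smaller response in uMT mice for both kininogens, and a several-fold difference either way for Klk10 and Klk11. At day 42, as a description, uMT CaCl2 aortas were below WT CaCl2 aortas by 2.16 ± 0.60 in Kng2 and by 1.12 ± 0.58 in Kng1, with no overlap in either, and the kallikreins overlapped. In uMT CaCl2 aortas, day 42 against day 7 gave 0 of 6 calls, against 0.971% of all genes, with Kng1 alone (1.22 ± 0.58) and 12.2% of all genes at an unadjusted p under 0.05. Without replicate 1 of day 7 that comparison called 2 of 6, Kng1 and Bdkrb1.

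Across the 30 arrays, the kallikreins ran together and against the kininogens. Klk10 and Klk11 correlated at r = 0.840, Klk8 and Klk11 at 0.766 and Klk8 and Klk10 at 0.695. Klk11 and Kng1 correlated at -0.832, and Kng1 and Bdkrb1 at 0.782. These are descriptions over arrays that share groups and slides. The genes whose pattern over the 30 arrays was most like that of Kng1 were Cd72 (r = 0.969), a receptor of B cells and macrophages, Snx20 (0.965) and Coro1a (0.965), an actin regulator of leukocytes. For Kng2 they were Kng1, Gm9733 (0.943) and I830077J02Rik (0.936). Bdkrb1 was followed by Mmp13 (0.904), a collagenase, Tnn (0.898), a tenascin, and Tubb3 (0.886), a tubulin. For Klk11 they were Cytl1 (0.960), a secreted cytokine-like protein, Adh7 (0.905), an alcohol dehydrogenase, and Adra2c (0.902), an adrenergic receptor. For Klk10 they were Vipr1 (0.919), a receptor for vasoactive intestinal peptide, Rhpn2 (0.899) and Clic5 (0.883). For Klk8 they were Cltb (0.893), a clathrin light chain, Icam2 (0.880), an adhesion molecule of endothelium and leukocytes, and Enpp4 (0.873).

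Most of the enzymes that degrade kinins did not pass the test. Of 8 tested peptidases of 10 listed, 1 rose and 1 fell in uMT mice at day 42, 0 were called by limma in uMT mice at day 7 (2 at an unadjusted p under 0.05), and 2 fell in WT mice at day 7. Ace, the angiotensin-converting enzyme and a main kininase, fell by 1.42 ± 0.38 in uMT CaCl2 aortas at day 42, to a mean level of 0.73, against 2.15 in sham aortas (limma adjusted p = 0.0247). Dpp4, a dipeptidyl peptidase of the cell surface, rose by 1.76 ± 0.46 there (limma adjusted p = 0.0204). Mme, neprilysin, fell by 2.24 ± 0.42 in WT CaCl2 aortas at day 7 (limma adjusted p = 0.0040), where 1 of 3 CaCl2 arrays was well above background, against 3 of 3 sham arrays. Xpnpep2, an aminopeptidase P, fell by 1.77 ± 0.48 in the same comparison (limma adjusted p = 0.0285). Median differences of the list were 0.04 in uMT mice at day 42 and -0.28 in WT mice at day 7, against -0.04 and 0.09 over all genes.

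Of the 5 genes of plasma kinin formation 3 were tested. Prcp, which activates plasma prekallikrein, rose by 1.24 ± 0.29 in uMT mice at day 42 (limma adjusted p = 0.0102) and C1qbp, which binds high molecular weight kininogen, differed by 0.14 ± 0.65 (limma adjusted p = 0.960). limma called 0 of the 3 at day 7, with 0 in uMT mice and 1 in WT mice at an unadjusted p under 0.05, and without WT sham day 42 replicate 2 it called Prcp higher in WT mice at that day. Of the 4 kallikrein inhibitors, Serping1, the C1 inhibitor, was tested and was not called in any of the 3 comparisons tested, but without WT sham day 42 replicate 2 it was called lower in uMT mice at day 7. Of 5 tested signalling genes of 6 listed, Nos2, the inducible nitric oxide synthase, rose by 1.25 ± 0.31 in WT mice at day 7 (limma adjusted p = 0.0162), and 0 were called in uMT mice at either day (2 at an unadjusted p under 0.05 at day 42 and 0 at day 7). Without WT sham day 42 replicate 2, Nos2 was also called in uMT mice at day 42 and Mme in uMT mice at day 7. Among the brightest of that list, Nos3, the endothelial nitric oxide synthase, differed by -1.23 ± 0.49 in uMT mice at day 42 (limma adjusted p = 0.150) and Pla2g4a, a phospholipase, by 0.10 ± 0.54 (limma adjusted p = 0.965).

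Of 23 other tissue kallikreins, 13 were tested, and 0 were called by limma in uMT mice at either day or in WT mice at day 7. At an unadjusted p under 0.05 there were 2 in uMT mice at day 42, 7 in uMT mice at day 7 and 1 in WT mice at day 7. Without WT sham day 42 replicate 2, Klk1, Klk1b27 and Klk1b8 were called lower in uMT mice at day 7 and Klk1b24 at day 42. The brightest were Klk1b21, which differed by -0.08 ± 0.49 in uMT mice at day 42 (limma adjusted p = 0.968), and Klk1b3, by -0.45 ± 0.37 (limma adjusted p = 0.593). The median difference of the 13 was -1.03 in uMT mice at day 7, against -0.02 over all genes. It was -0.08 in uMT mice at day 42 and 0.21 in WT mice at day 7, against -0.04 and 0.09 over all genes. As a description with no test, it was 0.83 in WT mice at day 42, against 0.05 over all genes. The Klk1b genes are near-identical copies, and their probes may share signal. In the same comparison the median difference was 1.23 for plasma kinin formation, 0.09 for the peptidases and 0.38 for signalling. All calls named for Ace, Dpp4, Mme, Xpnpep2, Prcp and Nos2 in uMT mice at day 42 and in WT mice at day 7 were lost with the slide as a random block, and all were made again with that block once WT sham day 42 replicate 2 was left out. The second of these fits cannot part slide from treatment in these comparisons, so it is no check on slides.

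**Figure D4:**
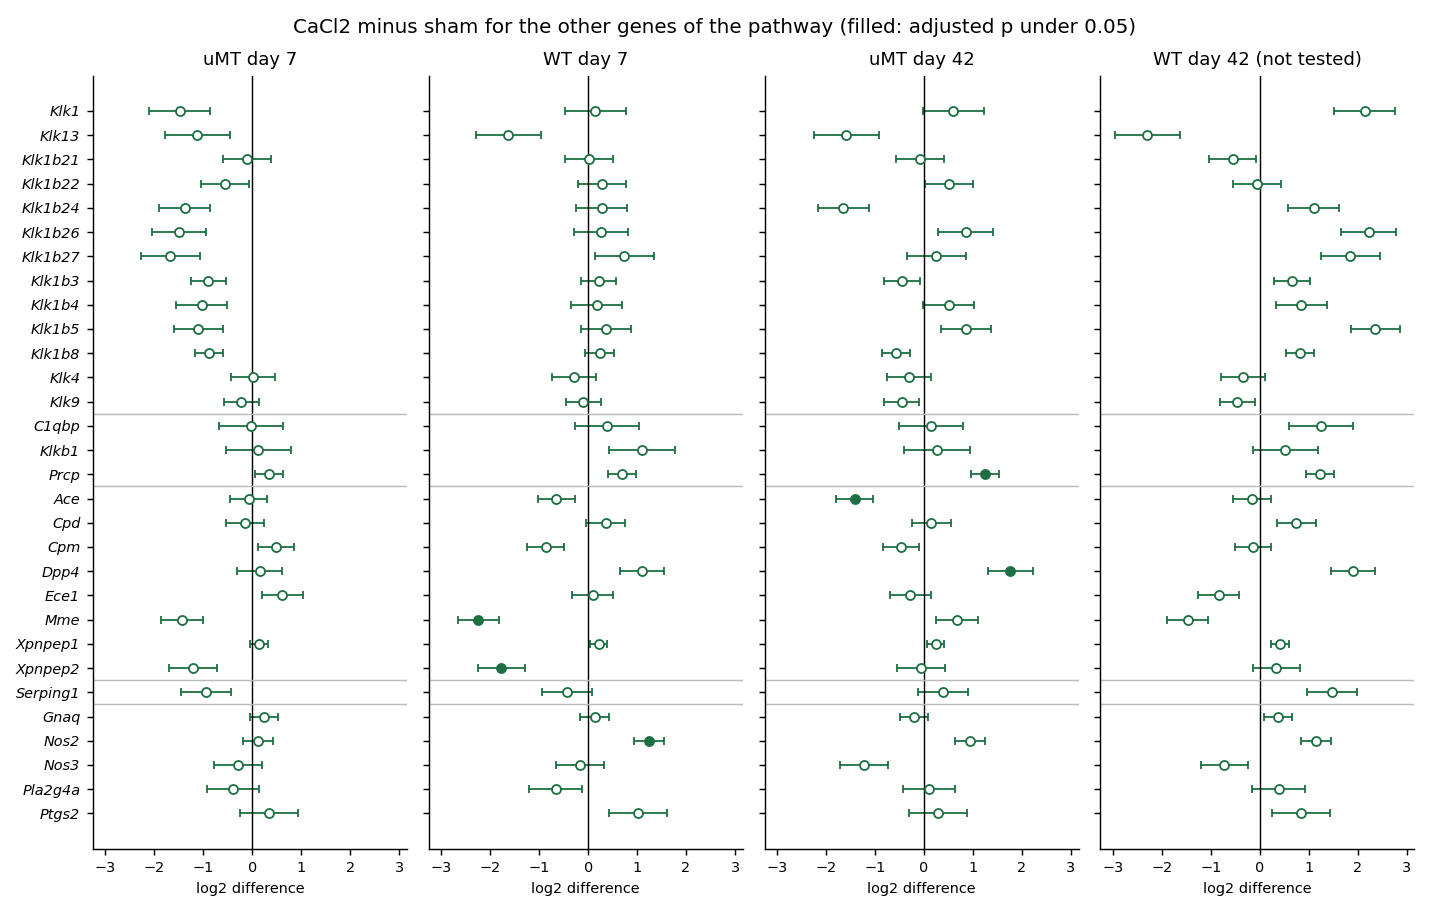
CaCl2 minus sham (log2 difference ± 1 standard error, n = 3 each) for the 30 other pathway genes tested, 1 panel for each comparison. Grey lines part, from top to bottom, other tissue kallikreins, plasma kinin formation, kinin-degrading peptidases, the inhibitor Serping1 and receptor signalling, and filled points have an adjusted p under 0.05. WT day 42 values carry no test. No gene is filled in uMT mice at day 7.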

How the data were processed

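Total RNA of 30 mouse aorta samples was read on one-colour Agilent arrays. Per the file headers, the deposited intensities were made with Agilent Feature Extraction 10.7.1.1 (the submitters' processing notes name 9.5.1.1), which subtracts background and detrends within an array. The authors' matrix, normalized between arrays, served as an alternative. From the processed signal, log2 values minus each array's 75th percentile were computed. Control spots and flagged outliers were left out, and a probe was kept if well above background on all 3 arrays of a group. Where several probes of a gene were kept, the brightest was used. Group means of the 23268 genes were compared with limma (version 3.58.1, R version 4.3.3) over all 10 groups, and p-values were adjusted by Benjamini-Hochberg over all genes (threshold 0.05). The fit was tested on simulated data. Array numbers limit the precision. Sequences are those of the scanner files and of RefSeq (GRCm38.p6), which held windows for 5 of the 7 members.

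Members and lists were chosen with earlier results of these data known. Named were all members, listed pathway genes called in a tested CaCl2 comparison or, where fewer than 2 were, the 2 brightest, and the 3 genes with the pattern most like each member's. Alternatives covered background, normalization, filter, probe choice, slide, replicate number and left-out arrays.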

Additional observations from a re-analysis of the deposited data

How the results depend on the processing

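The values are the number of the 6 tested members past an adjusted p of 0.05 in limma. With the slide as a random block or as a fixed term, the count was 0 in uMT mice at day 42 (3 in the report) and 0 in WT mice at day 7 (2 in the report), and the random block gave 1 for uMT sham day 7 against pre (0 in the report). Without WT sham day 42 replicate 2 it was 5 in uMT mice at day 42, 3 in uMT mice at day 7, 4 in WT mice at day 7 and 1 for uMT sham day 7 against pre. With the random block as well, a setting chosen after seeing the data, these were 6, 5, 5 and 1, and uMT against WT CaCl2 day 7 gave 1. That setting cannot part slide from treatment in the CaCl2 and sham counts, nor slide from genotype in the last. Without all arrays under 50% of probes above background, the counts were 0 in uMT mice at day 42, where 1 array was left in each group and assumed to vary like the others, 2 in uMT mice at day 7 and 4 in WT mice at day 7. With normexp and quantile normalization they were 1 in uMT mice at day 7, 1 for uMT against WT CaCl2 day 7 and 0 for WT sham day 7 against pre (2 in the report). With the compared groups alone they were 6 in WT mice at day 7 and 4 for WT sham day 7 against pre. With the percentile over probes above background on all arrays, uMT sham day 7 against pre gave 1. Leaving out 1 array at a time gave 1 to 2 in WT mice at day 7 (1 without CaCl2 replicate 3), 0 to 2 in uMT mice at day 7 (2 without CaCl2 replicate 2), 0 to 1 between pre groups, 0 to 3 between CaCl2 day 7 groups and 0 to 2 for uMT CaCl2 day 42 against day 7. Differences that turned sign were those of Klk8 in WT mice at day 7 (0.67 with the slide as a random and 1.03 as a fixed term), of Klk10 there (0.14 and 0.72), and of Kng2 in uMT mice at day 7 (-0.17 with the fixed term). Klk8 in WT mice at day 42 ran from -1.17 without sham replicate 2 to 0.62 without sham replicate 1. The cause was not tested. Of all genes, 1473 were called in uMT mice at day 42, 208 in uMT mice at day 7 and 1534 in WT mice at day 7; with the slide as a random block these were 0, 0 and 53, as a fixed term 3, 7 and 77, without WT sham day 42 replicate 2 3494, 2284 and 4283, and with the compared groups alone 618, 0 and 7849. Arrays with the same replicate number did not deviate together (median r of -0.0409 over 135 pairs of arrays), and the replicate block left the member counts at 3 in uMT mice at day 42, 2 in WT mice at day 7, 2 for WT sham day 7 against pre and 0 elsewhere. Signal over background limits Bdkrb1, Bdkrb2, Kng2 outside CaCl2 aortas and the second Kng1 probe.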
